A study of Mus musculus with 4 samples.

Results

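Genes that mark mesothelial cells, the lining layer of the gonadal fat pad, were measured in its white adipose tissue (WAT), with and without FSP27. The markers were 10 genes known from mesothelial cells, namely the surface and membrane genes Upk3b, Upk1b, Msln, Lrrn4 and Gpm6a, the transcription factor gene Wt1, and the keratin genes Krt7, Krt8, Krt18 and Krt19. Of these, 8 have a probe set named for them alone, 12 probe sets in all, among 12394 named genes on the array. Upk1b and Lrrn4 were matched to no probe set by symbol, synonym or gene identifier and have no value here. Both groups were male C57BL/6J mice, 3 months of age, carrying either the Fsp27 knockout or the wild-type gene, and RNA of the gonadal WAT of 5 mice of a genotype was pooled. Each pool was hybridised in duplicate to Affymetrix mouse expression arrays, giving 2 FSP27-deficient and 2 wild-type arrays. The knockout is that of the whole animal, and 1 pool stands for each genotype, so that every p-value below rests on the spread of repeat hybridizations, and none on how mice of a genotype vary.

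The mesothelium is a single sheet of flattened epithelial cells that covers the organs and fat pads of the body cavities and secretes a lubricating fluid. It arises from mesoderm, and its cells carry the simple epithelial keratins beside mesenchymal features. Visceral fat pads, among them the gonadal pad, have such a covering, whereas subcutaneous fat has none. WT1 is a zinc finger transcription factor of the mesothelium and its precursors, and mesothelin and uroplakin 3B are surface proteins by which mesothelial cells are commonly recognised. Keratins 8 and 18 pair with each other to form the intermediate filaments of simple epithelia, in which keratins 7 and 19 also take part.

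The knocked-out gene itself, Cidec, which encodes FSP27, was lower in the FSP27-deficient arrays, with signals of 8564 and 8949 against 20491 and 18255 in wild-type (log2 ratio of -1.14, SE 0.15, adjusted p = 0.00057 from limma). The sources used here do not say whether that probe set lies in the deleted sequence. Values are intensities on a linear scale, the signals of the GeneChip Operating Software (GCOS) of Affymetrix. The median signal of an array lay between 164.8 and 193, and the lower quartile between 52.7 and 64.1. A log2 ratio below is that of the signal plus 16, FSP27-deficient over wild-type, so that the change of a dim gene is understated. Of the named genes, 8523 reached a mean signal of 100 and were tested together with limma. An exact two-sided permutation test of 2 against 2 arrays cannot give a p below 0.333. No detection calls were used here, and the precision is limited by the number of arrays.

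Of the mesothelial markers 4 were lower in FSP27-deficient WAT and 0 were higher. All 8 that were measured had a negative log2 ratio, from -2.17 for Msln to -0.54 for Krt19, with a median of -1.09, whereas the median over all genes tested was -0.08 and 56.9% of those genes were below 0. Upk3b, Msln, Gpm6a and Krt8 passed an adjusted p of 0.05 in limma as lower, 4 of 8, where 6.51% of all genes tested did, and 0 of 8 passed as higher, where 5.78% did. Wt1, Krt7, Krt18 and Krt19 did not pass. Both FSP27-deficient arrays lay under both wild-type arrays for 7 of the 8, the exception being Krt19, and for 31.4% of all genes tested, and 0 of the 8 lay apart in the other direction, as 22.7% of all genes did. Those 7 genes also had mean signals at least 1.4-fold lower, with each FSP27-deficient array under the wild-type array of the same number. This is a reading of the study's criterion, and 20.8% of all genes tested met it. The paper asks for consistent duplicates without saying how they were compared. Wt1, Krt7 and Msln passed the filter on low signals through their wild-type arrays, with FSP27-deficient means of 62.3, 82.1 and 90.3. Shares of genes with arrays apart, or past a given log2 ratio, were read over the genes tested only, not without that filter. A log2 ratio of -1 or lower was found for 6 of the 8, Wt1, Krt7 and Msln among them, and for 7.03% of all genes tested. Krt8, Krt7 and Wt1 lay close to that limit and were at -0.90, -0.78 and -0.79 with a pseudocount of 64, which leaves Upk3b, Msln and Gpm6a past it, and Krt8 and Krt7 were at -0.93 and -0.99 with each array centred on its median. In bulk tissue, fewer mesothelial cells and less RNA of these genes in each cell cannot be told apart. The number called was 2 (Upk3b and Gpm6a) without wild-type replicate 1, a fit in which 2.25% of all genes were called lower. Without letting the spread depend on the signal, limma called 0 of the 8 and 0 genes lower in all, with 7 of the 8 and 1077 genes lower at an unadjusted p under 0.05, and the methods' t-test likewise called 0, with 5 of the 8 and 705 genes.

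**Figure D1:**
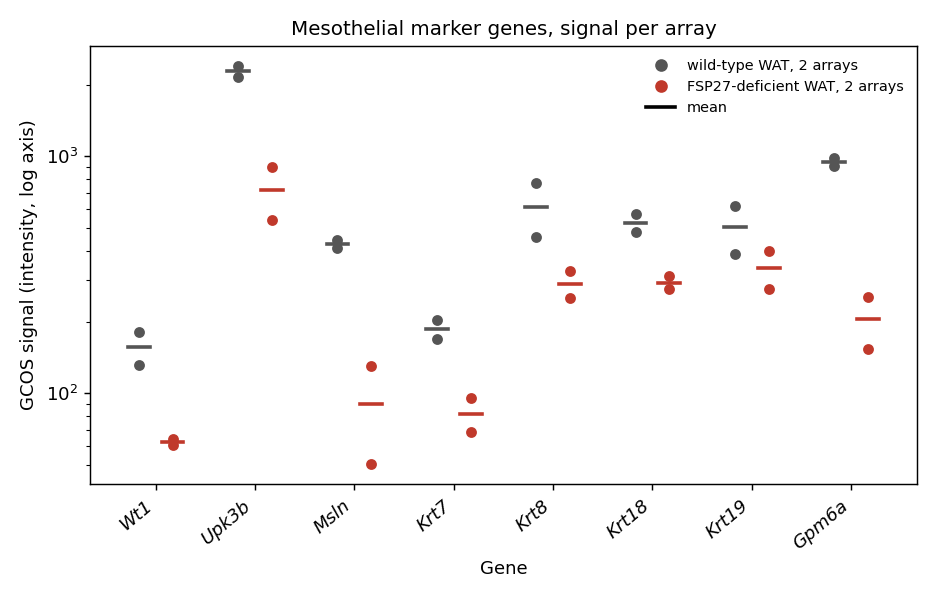
GCOS signal on a log axis for the 8 mesothelial marker genes with a probe set, with 1 dot per array and a short bar marking the genotype mean (wild-type in grey, FSP27-deficient in red). For Upk3b the red dots, at 899 and 537, lie below the grey dots, at 2171 and 2408, and only for Krt19 do the dots of the genotypes overlap.

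Among the surface and membrane genes mean signals fell between 3.19-fold and 4.72-fold. Upk3b, which encodes uroplakin 3B, gave signals of 899 and 537 in FSP27-deficient WAT, compared with 2171 and 2408 in wild-type WAT. Both wild-type signals were far above the upper quartiles of their arrays, 554 and 547, and the FSP27-deficient signals were the lower ones in both duplicates. Its mean fell 3.19-fold, from 2289 ± 168 to 718 ± 256 (SD over 2 arrays). The log2 ratio was -1.70, SE 0.24, with an adjusted p = 0.00094 from limma. The other Upk3b probe set gave 318 and 242 against 1372 and 1316, a 4.8-fold lower mean (log2 ratio of -2.21, adjusted p = 0.00096 over all probe sets).

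Msln encodes mesothelin, a protein anchored to the outer face of the cell membrane. Its signal was 50.1 and 131 in FSP27-deficient WAT, compared with 409 and 443 in wild-type WAT. The wild-type duplicates were close together and the FSP27-deficient ones were not, the lower of them being under the lower quartile of its array, 55.9, so that the size of this fall is uncertain. The mean was 4.72-fold lower (log2 ratio of -2.17, SE 0.43, adjusted p = 0.0063 from limma). That adjusted p was 0.083 without wild-type replicate 1 and 0.12 without wild-type replicate 2, at log2 ratios of -2.22 and -2.11. The log2 ratio was -1.59 without FSP27-deficient replicate 1 and -2.74 without FSP27-deficient replicate 2, and Msln passed in both fits.

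Gpm6a encodes a membrane glycoprotein that is best known from neurons and is also found on mesothelial cells. Its main probe set gave 255 and 154 in FSP27-deficient WAT, compared with 909 and 981 in wild-type WAT, with no overlap. The mean was 4.61-fold lower (log2 ratio of -2.16, SE 0.27, adjusted p = 0.00038 from limma), and it passed whichever of the 4 arrays was left out. The other Gpm6a probe set gave 138 and 88.4 against 379 and 448 (log2 ratio of -1.75, and, over all probe sets, adjusted p = 0.038).

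Wt1, the transcription factor gene of the group, had low signals in both genotypes. It gave 60.4 and 64.1 in FSP27-deficient WAT, compared with 182 and 131 in wild-type WAT. The genotypes did not overlap, yet all 4 signals lay below the medians of their arrays. Its mean was 2.51-fold lower, a log2 ratio of -1.12 with a 95% interval from -2.53 to 0.28, and it did not pass the test (adjusted p = 0.31 from limma). The interval of Wt1 thus holds both 0 and falls larger than the one measured. Wt1, Krt7 and Msln passed the filter on low signals through their wild-type arrays, since their FSP27-deficient means were 62.3, 82.1 and 90.3. Without that filter limma called 3 of the 8 markers lower, Upk3b, Msln and Gpm6a, where 3.11% of 12394 genes were called lower.

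The 4 keratins had smaller differences than the surface genes. Krt8, a type II keratin, gave 329 and 252 in FSP27-deficient WAT, compared with 768 and 455 in wild-type WAT, a mean 2.11-fold lower. It passed the test narrowly (log2 ratio of -1.0, SE 0.29, adjusted p = 0.043 from limma). The adjusted p was 0.11 without the filter on low signals, 0.078 after quantile normalization, 0.11 without FSP27-deficient replicate 2 and 0.47 without wild-type replicate 1, where the log2 ratio was -0.63. The other Krt8 probe sets, both of the kind that Affymetrix marks as open to cross-hybridization, gave 241 and 201 against 484 and 302, and 111 and 208 against 429 and 458, so that the genotypes were apart on each of the 3 probe sets, none of which passed over all probe sets (adjusted p = 0.31, 0.066 and, for the one read above, 0.12).

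Krt18, the type I partner of keratin 8, gave 275 and 312 against 568 and 482. Here the duplicates of each genotype were close together, and the mean was 1.79-fold lower (log2 ratio of -0.81, 95% interval from -1.35 to -0.26, adjusted p = 0.056 from limma). It passed with the replicate number as a block (adjusted p = 0.033, in a fit that called 9.75% of all genes lower) and, by a small margin, with other ways of reading genes from probe sets (adjusted p = 0.0496 and 0.047), although it has a single probe set. Krt7, a type II keratin of simple epithelia, gave 68.6 and 95.6 against 169.5 and 204, a mean 2.28-fold lower that did not pass (log2 ratio of -1.06, 95% interval from -2.21 to 0.10, adjusted p = 0.24 from limma). Krt19, the smallest of the type I keratins, gave 400.2 and 275 against 388 and 614. The genotypes overlapped for this gene, and its log2 ratio of -0.54, with a 95% interval from -1.18 to 0.10, did not pass (adjusted p = 0.29 from limma). Left out in turn, the arrays moved the value for Krt19 from -0.86 (wild-type replicate 1) to -0.21 (wild-type replicate 2), and it was -0.28 without FSP27-deficient replicate 2. Whether the keratins differed less than the surface genes was not tested.

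**Figure D2:**
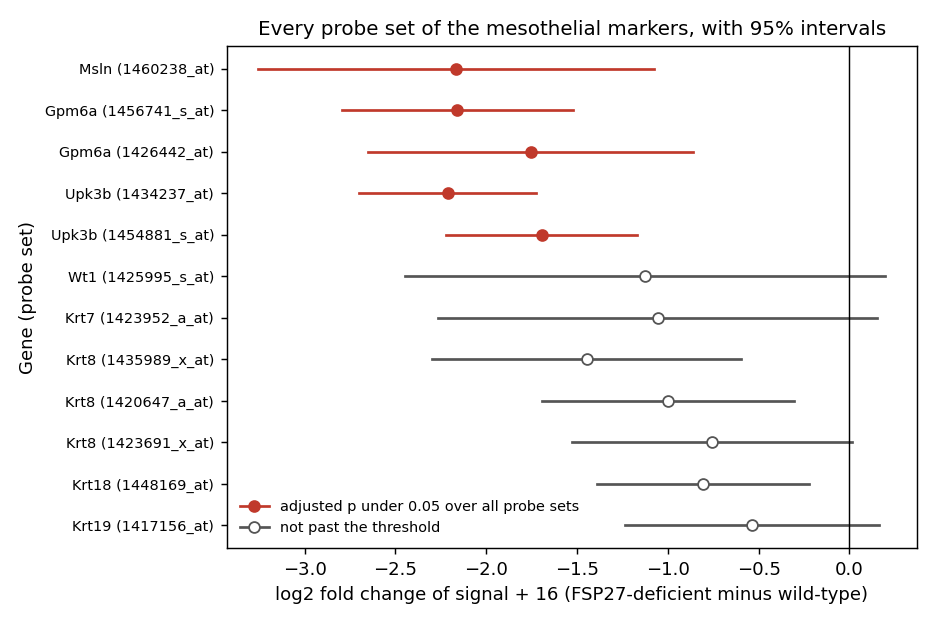
Log2 fold change (the log2 ratio of the text, FSP27-deficient over wild-type) for each of the 12 probe sets of the mesothelial markers, with the 95% interval from limma (red and filled, adjusted p under 0.05 over all probe sets, and grey and open, not past the threshold). All 12 points lie to the left of 0, and the 5 filled ones belong to Upk3b, Gpm6a and Msln.

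Taken one by one over 20393 probe sets without a filter, all 12 marker probe sets had a negative log2 ratio, and 5 were called lower, where 2.39% of all probe sets were. Probe sets of 1 gene share their target, so that these are not independent measurements.

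As several of these genes were lower, the 250 bases before their starts are shown for 4 of them, the called genes Upk3b, Gpm6a and Krt8 and the keratin partner of Krt8, as given by RefSeq for GRCm38.p6. Of the 10 markers 6 were matched in that table (Upk3b, Lrrn4, Krt7, Krt8, Krt18 and Gpm6a, the last with 2 starts). Each is read 5′ to 3′ on the strand of the gene, and capitals mark a match on either strand to GGAATG, the core of sites of the TEAD factors. The sequences of Upk3b (chr5:136038246-136038495, plus strand) and of the first Gpm6a start (chr8:54779184-54779433, plus strand) are:
Upk3b: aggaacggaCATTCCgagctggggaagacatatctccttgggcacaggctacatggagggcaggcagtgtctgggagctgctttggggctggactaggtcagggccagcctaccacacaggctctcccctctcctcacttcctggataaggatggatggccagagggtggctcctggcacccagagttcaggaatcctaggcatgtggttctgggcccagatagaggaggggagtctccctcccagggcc
Gpm6a: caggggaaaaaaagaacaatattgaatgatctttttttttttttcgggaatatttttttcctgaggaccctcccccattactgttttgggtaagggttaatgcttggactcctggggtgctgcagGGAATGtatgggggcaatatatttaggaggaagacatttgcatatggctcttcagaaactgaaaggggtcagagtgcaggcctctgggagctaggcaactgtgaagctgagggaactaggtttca
Those of Krt8 (chr15:102004343-102004592, minus strand) and Krt18 (chr15:102027966-102028215, plus strand), whose starts lie 23874 bases apart on chromosome 15 and point away from each other, are:
Krt8: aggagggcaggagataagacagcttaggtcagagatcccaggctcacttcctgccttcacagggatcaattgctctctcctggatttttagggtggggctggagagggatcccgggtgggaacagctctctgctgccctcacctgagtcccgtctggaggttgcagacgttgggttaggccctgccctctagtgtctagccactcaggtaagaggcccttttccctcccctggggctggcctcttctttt
Krt18: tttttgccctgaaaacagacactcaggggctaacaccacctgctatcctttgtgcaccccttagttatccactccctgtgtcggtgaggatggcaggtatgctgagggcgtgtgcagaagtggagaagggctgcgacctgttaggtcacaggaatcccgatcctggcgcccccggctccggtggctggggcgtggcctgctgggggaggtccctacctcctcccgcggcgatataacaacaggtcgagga
The patterns searched on both strands were the TEAD core GGAATG, the core of WT1 and EGR1 sites GTGGGNG, the GC box GGGCGG and the TATA box TATAAA. Matches to the WT1 core and to the GC box can overlap. GGAATG was found in the windows of Upk3b, Gpm6a and Lrrn4, 3 of the 7 windows of the markers, and in 12.6% of 32851 promoter windows of this length. GTGGGNG was found in those of Lrrn4 and Krt7 and in 28.1% of all windows. The Krt7 window also held GGGCGG, as did 32.7% of all windows, and the second Gpm6a window TATAAA, as did 12.4%. None of the 4 patterns was found in the Krt8 and Krt18 windows. A match describes the letters only.

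Further genes associated with the mesothelium were lower in part, in a list chosen, like the markers, with earlier results of these data known. Of 16 listed genes 15 have a probe set and 14 were tested, of which 7 were called lower and 0 higher, with a median log2 ratio of -1.34, where 6.51% of all genes tested were called lower. Without the filter on low signals 5 were called lower, where 3.11% of all genes were. Aldh1a2 is among the 7 and passed the filter through its wild-type arrays, its FSP27-deficient mean being 53.2. Efemp1, an extracellular matrix glycoprotein gene, gave 424 and 377 in FSP27-deficient WAT, compared with 2595 and 2088 in wild-type WAT, the clearest separation in the list (log2 ratio of -2.49, SE 0.21, adjusted p = 3.7e-05 from limma). Aldh1a2, which encodes an enzyme of retinoic acid synthesis and is expressed in embryonic mesothelium, gave 64.9 and 41.6 against 366 and 182 (log2 ratio of -2.01, adjusted p = 0.040, and 0.085 without the filter on low signals, 0.59 without wild-type replicate 1 and 0.16 without wild-type replicate 2). Rspo1, a secreted enhancer of Wnt signalling, gave 69.4 and 238 against 620.1 and 489.9 (log2 ratio of -1.95, adjusted p = 0.012, with -1.16 without FSP27-deficient replicate 1, adjusted p = 0.11 without wild-type replicate 1 and 0.057 without the filter). The FSP27-deficient arrays differed strongly for Rspo1 and less for Aldh1a2.

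The other called genes of that list were Igfbp6, Pdpn, Slpi and Cldn15, which encode an insulin-like growth factor binding protein, podoplanin, a protease inhibitor and a claudin of tight junctions, with log2 ratios from -1.68 to -1.15. Pdpn is also a gene of lymphatic endothelium, and Igfbp6 and Efemp1 are expressed by fibroblasts. With either wild-type array left out fewer genes of the list were called, as over all genes. The list median ran from -1.64 to -0.99 with an array left out. Not every gene passed. Of the 14 tested 13 had a negative log2 ratio, as 56.9% of all genes tested did. Both FSP27-deficient arrays lay under both wild-type arrays for 11 of the 14, as for 31.4% of all genes tested. Bnc1, Gata6, Dmkn, Anxa8, Prg4, Stmn2 and Nkain4 did not pass. Of these, Stmn2, Nkain4, Gata6 and Bnc1 were apart in that direction, at log2 ratios of -1.69, -1.54, -0.55 and -0.40. Anxa8 and Prg4, with log2 ratios of -0.05 (95% interval from -0.72 to 0.62) and 0.03 (95% interval from -1.01 to 1.07), overlapped between the genotypes. Calb2, the calretinin gene, was at 56.1 or less on all 4 arrays and was not tested.

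**Figure D3:**
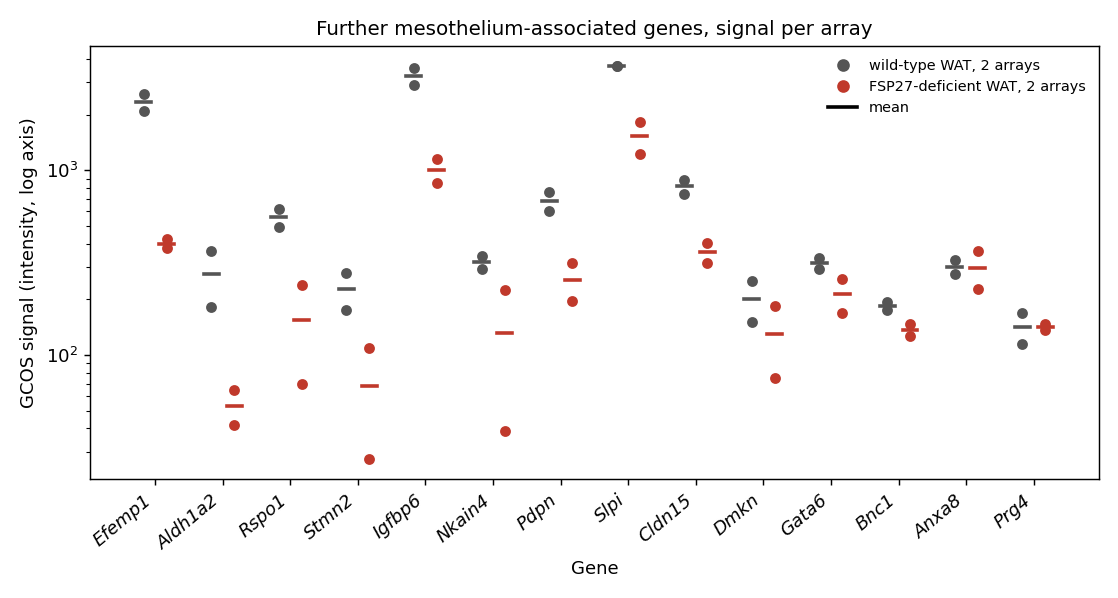
GCOS signal on a log axis for the 14 tested genes of the further mesothelium-associated list, ordered by their log2 fold change, with 1 dot per array and a short bar marking the genotype mean (wild-type in grey, FSP27-deficient in red). The Efemp1 dots are far apart, at 424 and 377 against 2595 and 2088, and those of Anxa8 and Prg4 overlap.

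Keratin filaments are tied to desmosomes, the spot junctions between epithelial cells. Of 12 genes of desmosomes and keratin linkers 6 were tested, 2 of which were called lower and 0 higher, with a median log2 ratio of -0.45. Among all genes tested 6.51% were called lower. Jup, which encodes plakoglobin, gave 244 and 165 against 686 and 619.7 (log2 ratio of -1.62, SE 0.27, adjusted p = 0.0026 from limma). Pkp2, which encodes plakophilin 2, gave 938 and 541 against 1860.1 and 2364 (log2 ratio of -1.53, SE 0.26, adjusted p = 0.0026). Both genes passed whichever of the 4 arrays was left out, and the arrays of the genotypes were apart. Dsp, Dsg2 and Dsc2, the other main desmosome genes, were below the filter.

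Most other keratins were too dim to test. Of 19 further keratin genes 14 were below the filter, and of the 5 tested 1 was called higher and 0 lower. Their median log2 ratio was 0.72, and 1.23 without FSP27-deficient replicate 2. The called gene was Krt79, a type II keratin of skin appendages, with 1614 and 1887 against 546 and 687 (log2 ratio of 1.49, SE 0.21, adjusted p = 0.00092 from limma). Among all genes tested 5.78% were called higher.

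Epithelium of neighbouring organs also expresses simple keratins, so its genes were read beside the markers. Among all genes tested 6.51% were called lower and 56.9% had a negative log2 ratio. Of 12 genes of luminal epithelium 9 were tested, all 9 with a negative log2 ratio, of which 2 were called lower, and the median was -0.67. Their summed signal was 1684 and 2100.1 in FSP27-deficient WAT, compared with 3752 and 2873 in wild-type WAT. The called genes were Epcam, an adhesion molecule gene, with 11.7 and 46.4 against 260 and 305 (log2 ratio of -2.84, SE 0.71, adjusted p = 0.021 from limma), and Prom1, with 413 and 428 against 944 and 702 (log2 ratio of -0.93, adjusted p = 0.022). Without either wild-type array neither was called (adjusted p = 0.33 and 0.29 without replicate 1, and 0.46 and 0.0504 without replicate 2), and 4 genes of the list were called without FSP27-deficient replicate 2. The FSP27-deficient signals of Epcam, with a mean of 29.0, were under the lower quartile of either array, and Epcam passed the filter through its wild-type arrays. The size of its log2 ratio depends on the pseudocount, being -3.53 with 1 and -1.92 with 64. Cdh1, the E-cadherin gene, and Muc1 were below the filter. The part of such epithelium in the lower keratin signals was not tested.

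No gene of the urothelium or of the epididymis and testis passed limma without the replicate block. Of 4 urothelial genes 3 were tested, with 1 at an unadjusted p under 0.05, Upk1a having 449 and 493 against 213 and 325 (log2 ratio of 0.80, adjusted p = 0.089, and 0.044 with the replicate number as a block) and Trp63 a log2 ratio of 0.12. Of 7 measured genes of epididymis and testis 3 were tested, with 0 at an unadjusted p under 0.05, Prm1 and Lcn5 having log2 ratios of 0.10 and -0.95 (adjusted p = 0.93 and 0.69), the latter resting on 1 wild-type array at 431 against 14.1 on the other. The summed signal of these 3 was 506 and 242 in FSP27-deficient WAT, compared with 248 and 679.7 in wild-type WAT, and the genotypes overlapped.

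Mesothelial cells can take on a mesenchymal character, with loss of keratins and gain of genes such as Snai1, Vim and Acta2. Of 12 listed genes 9 were tested, and 6 were called lower and 0 higher, with a median log2 ratio of -1.04. Among all genes tested 6.51% were called lower. Fn1, the fibronectin gene, had a log2 ratio of -2.08 (687 and 677 against 2830.4 and 3030.4, adjusted p = 5.5e-05 from limma), Tgfbi one of -1.60 and S100a4 one of -1.52. Vim and Acta2 were called lower too, with log2 ratios of -1.22 and -1.02 (adjusted p = 0.00037 and 0.0027 from limma). The transcription factor genes Zeb1, Zeb2 and Twist1 were tested and did not pass, with log2 ratios of -0.06, -0.31 and 0.23, and Snai1 and Snai2 were below the filter. Most genes of this list are expressed by fibroblasts, smooth muscle or macrophages too.

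Genes of macrophages and fibroblasts were also lower in part. Over all genes tested 6.51% were called lower and 56.9% had a negative log2 ratio. For 31.4% of them both FSP27-deficient arrays lay under both wild-type arrays. With either wild-type array left out, fewer genes were called lower over all genes, and likewise in each list below. Of 8 macrophage genes 7 were tested and 5 were called lower, with a median log2 ratio of -1.26, and -0.98 without wild-type replicate 2. They were led by Lyz2 (-1.77, adjusted p = 0.00019 from limma), Cd163 (-1.43) and Cd68 (-1.34). All 7 had a negative log2 ratio, and both FSP27-deficient arrays lay under both wild-type arrays for 5. Of 11 fibroblast genes tested 5 were called lower, with a median of -0.66 and Col3a1 at -0.90 (adjusted p = 0.0024 from limma). With an array left out the fibroblast median ran from -0.77 to -0.63. All 11 fibroblast genes had a negative log2 ratio, and both FSP27-deficient arrays lay under both wild-type arrays for all 11, compared with 7 of the 8 mesothelial markers. Of 8 endothelial genes 1, Pecam1, was called lower (-0.94, adjusted p = 0.017 from limma), with a median of -0.53. That call also depended on FSP27-deficient replicate 1. With an array left out the endothelial median ran from -0.64 to -0.32. Of 3 lymphatic endothelial genes tested 2 were called lower, Lyve1 (-1.61) and Pdpn, with a median of -1.39. With an array left out that median ran from -1.71 to -1.08.

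Most adipocyte genes did not pass. Of 10 tested 1 was called higher, Pnpla2, the adipose triglyceride lipase gene, where 5.78% of all genes tested were. Its log2 ratio was 0.73 (adjusted p = 0.0092 from limma, 0.073 without the filter and 0.057 with probe sets averaged). It did not pass without wild-type replicate 2. Lep, the leptin gene, was called lower (-1.33, adjusted p = 0.00088 from limma), where 6.51% of all genes tested were. The median was 0.21, and 0.29 without FSP27-deficient replicate 1. Only 1 of the 10, Lep, had a negative log2 ratio, where 56.9% of all genes tested did. Both FSP27-deficient arrays lay over both wild-type arrays for 7 of the 10, where 22.7% of all genes tested did. At an unadjusted p under 0.05 from limma there were 5, Lep and Pnpla2 among them. Of all 8523 genes tested 1255 were lower at that level, and those higher were not counted. The summed signal of the 8 mesothelial markers was 2337 and 1819.6 in FSP27-deficient WAT, compared with 5564 and 5719 in wild-type WAT, a ratio of 0.37. The ratio was 0.37 for the further mesothelial genes, 0.41 for the macrophage genes, 0.43 for the lymphatic endothelial genes and 0.44 for the mesenchymal transition list. It was 0.57 for luminal epithelium, 0.59 for the fibroblast genes, 0.77 for the endothelial genes, 1.18 for the adipocyte genes and 2.23 for the other keratins. A sum of linear signals is weighted to the brightest genes, among the markers to Upk3b. These ratios were not tested against each other, and the part of a general fall of stromal RNA in the lower mesothelial signals was not tested.

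**Figure D4:**
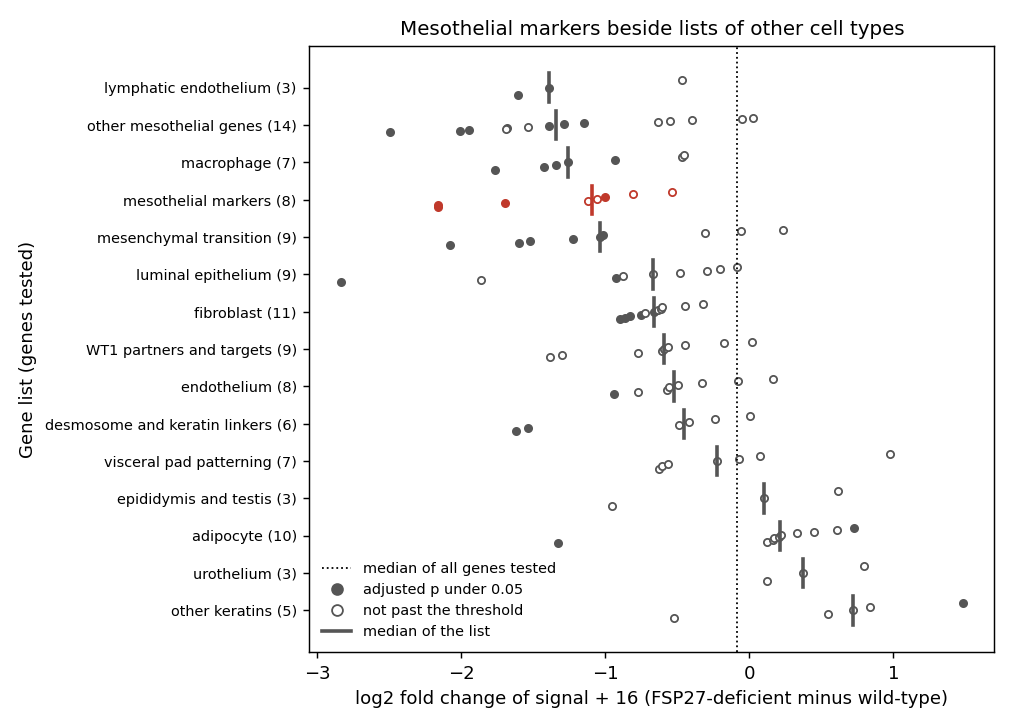
Log2 fold change (the log2 ratio of the text, FSP27-deficient over wild-type) with a point for each tested gene of the mesothelial markers (red) and of 14 other lists (grey), filled where the adjusted p from limma is under 0.05, a dotted line at -0.08, where the median over every gene tested lies, and a bar at each list median. The mesothelial markers lie between -2.17 and -0.54 around a median of -1.09, and the adipocyte genes around a median of 0.21.

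Genes with the pattern most like that of Wt1, Upk3b and Msln were read as those with the smallest Euclidean distance between log2 signals centred on each gene's mean over the 4 arrays. With 4 arrays of 2 genotypes, a small distance means little more than a similar fold change and a similar order of the duplicates. For Upk3b the nearest were Osmr (distance of 0.14), Chrdl1 (0.15), Pkp2 (0.21), Cd55 (0.23) and Rapgef3 (0.26). Pkp2 is the desmosome gene named above, and Osmr encodes the receptor of oncostatin M. For Msln they were Vwa1 (0.38), Bmyc (0.39), Thbd (0.42), Prss23 (0.43) and Nfatc2ip (0.45). Thbd encodes thrombomodulin, an anticoagulant protein of endothelial and mesothelial cells, with signals of 507 and 808 against 3192 and 3656. It was picked for its likeness to Msln on these same arrays, so that its log2 ratio of -2.39 is not a separate result. For Wt1 they were Cbx6 (0.013), Ccdc88a (0.034), Islr (0.070), Cd53 (0.080) and Gamt (0.095), of which Cd53 is a gene of leukocytes and Islr one of mesenchymal cells.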

How the data were processed

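RNA pools of gonadal WAT (45 μg, 5 mice each) were hybridised to Affymetrix arrays. The authors deposited GCOS signals, a linear intensity, for 22690 probe sets, and no source used here gives the GCOS version or scaling target. The platform's annotation gives 1 gene symbol for 20393 probe sets, several for 691 (not used) and none for 1606. Each gene was read from its probe set with the highest mean signal. The test, for genes whose mean signal reached 100, was that of limma 3.58.1 in R 4.3.3 on log2(signal + 16) (lmFit, then eBayes with its variance trend, with 12.1 degrees of freedom, 2 of them residual), with Benjamini-Hochberg adjustment over all genes tested and a threshold of 0.05.

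The markers and the lists were chosen with earlier results of these data known. Named genes were the markers, Cidec, from each list up to 3 called genes with the largest change (or up to 2 with the highest signal where none was called), and the 5 nearest in pattern to Wt1, Upk3b and Msln. Other list genes were named after their values were seen. No list was tested as a set. Settings varied were the pseudocount (1 or 64), the filter (none or 200), scaling (quantile or median centring), the way probe sets are combined, the variance trend, the methods' t-test, a replicate block, a fold criterion on both duplicates, and each array left out, the lone array then being assumed to vary like the others. The steps were tested on simulated data.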

Additional observations from a re-analysis of the deposited data

How the results depend on the processing

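All 8 mesothelial markers kept a negative log2 ratio under every alternative in which they were tested, but most alternatives could not change that sign. The filter, the variance trend, the t-test and the block leave the ratio as it is. For the 7 markers whose arrays were apart, another pseudocount or a dropped array cannot turn it either. The number called lower was 3 to 5 of 8 (of 6 with a filter of 200), except for 0 without a trend and with the methods' t-test, and 2 to 4 with 1 array left out. The further mesothelial genes gave 0 calls under those 2 alternatives and 4 to 9 with an array left out. Over all genes, called higher and lower were 1 and 0 without a trend, 0 and 0 with the methods' t-test, and with an array left out between 216 and 503 higher and between 192 and 874 lower, the main counts being 493 and 555. The fold criterion, met by 1237 genes higher and 1772 lower, was met by 2196 higher without the filter, and by 796 higher and 1071 lower when both duplicates had to pass it. Same-numbered arrays did not deviate together (correlation of 0.065 across genes), and the numbers name repeat hybridizations only. With the replicate number as a block, 5 markers and 8 further mesothelial genes were called lower, and calls rose over all genes too, to 831 (9.75%). Values near 0 turned with an array left out: Hoxc8 (-0.19 to 0.050), Trp63 (-0.20 to 0.44), Prm1 (-0.36 to 0.56) and Wtap (-0.50 to 0.15). Lcn5, at -0.95 in the main fit, turned too (-2.90 to 0.99), its wild-type signals being 14.1 and 431. Hoxc8 was 0.00068 after centring. Quantile normalization and centring moved the median of all genes from -0.08 to -0.01. The number of arrays and low signals limit the precision, and the causes of these differences were not tested.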

Other observations

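Genes listed for the patterning of fat pads, visceral or other, and partners of WT1 were read as well. Of 7 tested genes of pad patterning 0 passed limma in either direction (0 at an unadjusted p under 0.05). The median log2 ratio was -0.22, and -0.19 without FSP27-deficient replicate 2. Hoxc8, a homeobox gene, gave 2031 and 1716 in FSP27-deficient WAT, compared with 2129 and 1807 in wild-type WAT (log2 ratio of -0.07, adjusted p = 0.87 from limma). Gpc4, a glypican gene, gave 1028 and 977 against 1187 and 1156 (log2 ratio of -0.22, adjusted p = 0.54). Tcf21, a transcription factor gene of visceral preadipocytes and mesothelium, gave 226 and 143 against 314 and 255 (log2 ratio of -0.61, adjusted p = 0.31). Of the 7 genes 5 had a negative log2 ratio, as 56.9% of all genes tested did. Both FSP27-deficient arrays lay under both wild-type arrays for 4, as for 31.4% of all genes tested. Hoxc9 had the highest log2 ratio, 0.98, and its genotypes overlapped. The median of this mixed list does not describe the visceral pad alone.

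Of 9 tested partners and targets of WT1 0 passed limma (3 at an unadjusted p under 0.05), and 8 had a negative log2 ratio. The median was -0.59, with -0.82 without FSP27-deficient replicate 2 and -0.51 without wild-type replicate 1. Among all genes tested 56.9% had a negative log2 ratio. Wtap, which encodes a protein that binds WT1, gave 656 and 1001 against 729.9 and 1151 (log2 ratio of -0.17, adjusted p = 0.75 from limma), with duplicates further apart than genotypes. Cited2, a coactivator gene, gave 411 and 797 against 894 and 849 (log2 ratio of -0.59, adjusted p = 0.22), and it was -1.05 (adjusted p = 0.013) without FSP27-deficient replicate 2 and -0.13 without FSP27-deficient replicate 1.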
